A study of Mus musculus with 157 samples.

Results

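The clustered protocadherin genes encode cadherin-like proteins of the neuronal cell surface and lie side by side on mouse chromosome 18 in an alpha, a beta and a gamma cluster. They were taken as every transcript whose symbol is Pcdha, Pcdhb, Pcdhga, Pcdhgb or Pcdhgc followed by a number, or Pcdhac followed by a number. This gave 58 genes with 1 transcript each, of 33687 transcripts counted around transcription start sites (TSS) for total RNA polymerase II (Pol II), 33746 for its serine 5 phosphorylated form, and 33968 and 33985 counted over gene bodies. The alpha cluster had 14 genes (Pcdha1 to Pcdha12, Pcdhac1 and Pcdhac2), the beta cluster 22 (Pcdhb1 to Pcdhb22) and the gamma cluster 22. Of the gamma genes, 12 were of the A type, 7 of the B type and 3 of the C type (Pcdhgc3, Pcdhgc4 and Pcdhgc5). In GRCm38 the alpha genes lie between positions 36930285 and 37188897, the beta genes between 37264998 and 37521419, and the gamma genes between 37661775 and 37841873. All 58 passed the filter on low counts in each of the 4 tables.

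Each gene of the alpha and gamma clusters has its own promoter and a large variable exon, which is spliced to constant exons shared by the whole cluster. Beta genes have a single coding exon and no shared constant exons. In neurons each cell is known to use a small, largely random set of the alpha, beta, gamma A and gamma B promoters, which gives the cell a surface identity, whereas the C-type genes are used more uniformly. Promoter choice is known to depend on DNA methylation, on the insulator protein CTCF and on cohesin, which bring a distal enhancer to the chosen promoter. Embryonic stem cells are not a tissue in which these proteins are known to act.

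The study treated wildtype E14 cells, an established line of mouse embryonic stem cells, with 1 µM retinoic acid, a vitamin A derivative that starts their differentiation. The cells grew on gelatin in medium with serum and leukemia inhibitory factor, and were sampled untreated (0 h) and after 2, 4, 6, 24, 48 and 72 h. Crosslinked chromatin was precipitated with antibodies to the N-terminal domain of Pol II (NTD, total Pol II), to Pol II phosphorylated at serine 5 of its repeat domain (Ser5p, the form enriched at promoters) or at serine 2 (Ser2p, the form of elongating Pol II), and sequenced. The 53 libraries used, of 157 samples, were 17 of NTD, 18 of Ser5p and 18 of Ser2p. NTD had 2 libraries at 0, 2, 24 and 72 h and 3 at 4, 6 and 48 h, and Ser5p and Ser2p differed only in having 3 at 2 h. With each antibody the 0 h libraries were replicates 1 and 4, and the 24 h libraries replicates 2 and 3. These 2 times share no replicate number. From their libraries alone, a difference between replicates and a change with time cannot be told apart. The labels do not say that replicates came from separate cultures, so each p-value reflects only how far these samples lie apart, and that spread may be technical.

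Each TSS window reached 1 kb to either side of the start, so levels in it could be compared between genes in CPM, read counts relative to the TMM-scaled library size. Total reads per library were 1088159 to 3210580 (NTD windows), 1504737 to 3347830 (Ser5p windows), 11684907 to 25696364 (NTD bodies) and 18045745 to 28745658 (Ser2p bodies). Of all libraries the 72 h replicate 3 had the lowest TMM factor in both TSS tables (0.914 for NTD and 0.885 for Ser5p). This library and 0 h replicate 4 had stood apart in earlier results of these data, so calls were also made without both. At 0 h the 10 stem cell markers together had 827 to 1094 CPM of NTD, against 48.6 to 56.3 CPM for 8 fibroblast or feeder markers. At 48 h the stem cell markers had 507 to 532 CPM and 6 of 10 had fallen, while 0 of 11 tested neuron markers had risen and 2 had fallen, beside 4.92% of all transcripts lower and 9.58% called. The 0 h libraries are the only untreated ones, so retinoic acid and time in culture cannot be told apart. In cells analysed in bulk, fewer cells that use a promoter and less Pol II per cell cannot be told apart.

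TSS windows of gamma genes held more Pol II than those of beta genes, and beta more than alpha, by cluster medians at every time. After the first gene of each cluster, alpha and gamma start sites lie within the annotated bodies of upstream genes. Pol II at a promoter and Pol II passing through from upstream cannot be told apart in these windows. NTD in the TSS window had a median of 6.81 CPM over the alpha genes (range 5.74 to 8.40), 8.91 over the beta genes (4.96 to 10.6) and 17.5 over the gamma genes (10.8 to 43.6). Over all transcripts that passed the filter on low counts the median was 15.6 CPM and the lower quartile 6.50. All 36 alpha and beta genes lay under that median. Of the gamma genes, 14 of 22 lay above that median, and all 22 lay above every alpha and every beta gene. Ser5p gave the same order of clusters, with medians of 11.6 (alpha), 14.1 (beta) and 23.8 CPM (gamma) beside 17.9 for all transcripts that passed. In Ser5p 21 gamma genes lay above every alpha and beta gene, the exception being Pcdhgb4 at 16.6 CPM. The gamma median was above the beta median, and the beta median above the alpha median, in 17 of 17 NTD libraries and 18 of 18 Ser5p libraries.

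**Figure D1:**
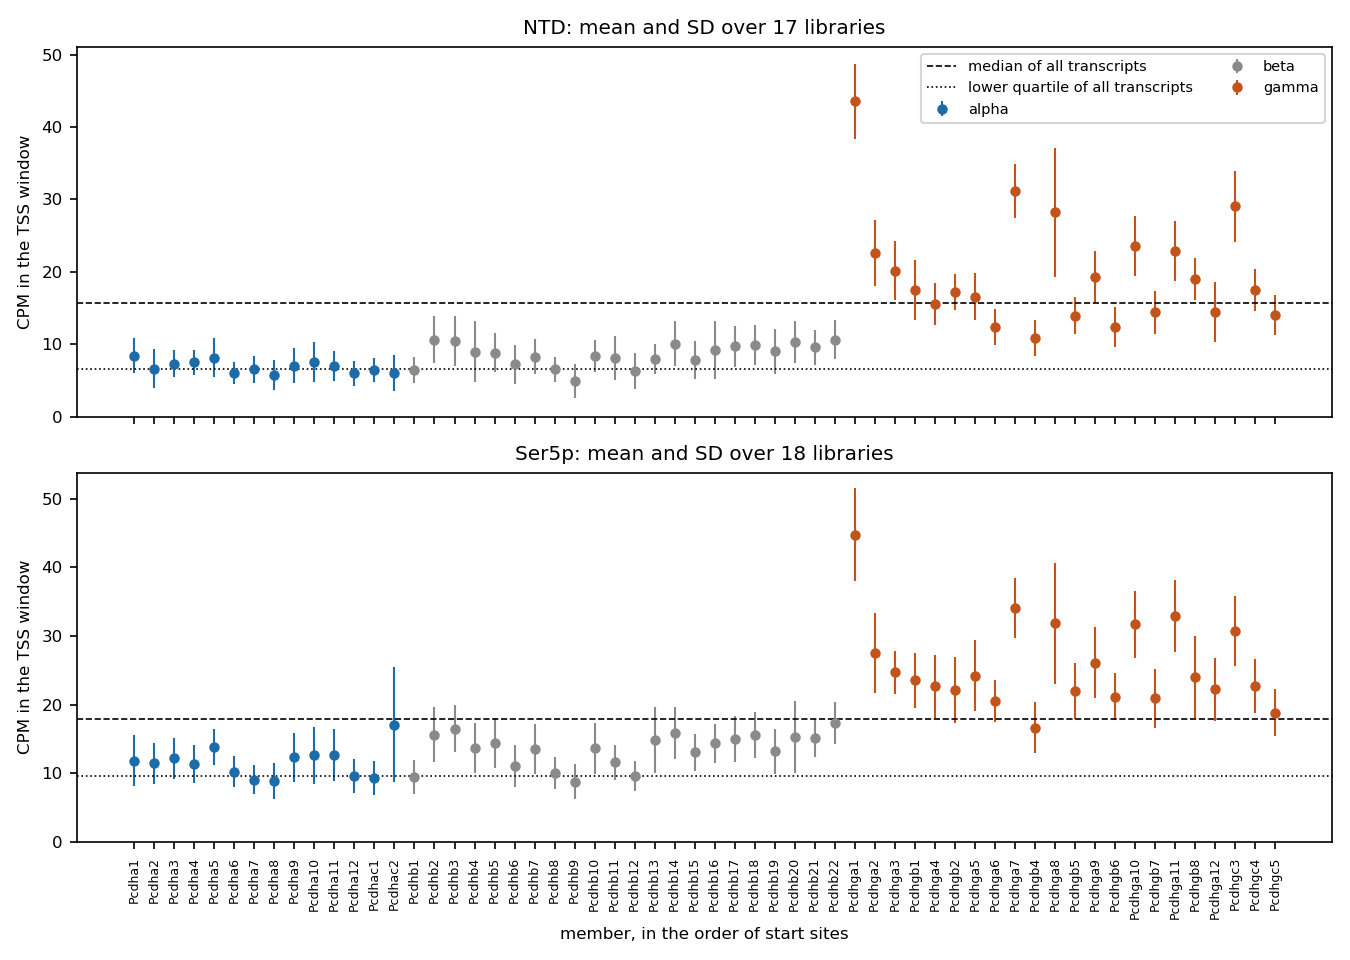
Pol II in the 2 kb TSS window of each of the 58 genes in the order of their start sites, in CPM, as the mean with its SD over 17 NTD libraries (top) and 18 Ser5p libraries (bottom) of all times. Alpha and beta genes lie below the dashed line (median of all transcripts that passed the filter) in both panels. Pcdhga1 stands highest at 43.6 CPM of NTD and 44.8 CPM of Ser5p.

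Within the gamma cluster the A-type genes were the fullest. Their median was 21.4 CPM of NTD against 14.4 for the B type, and 8 of 12 A-type genes lay above every B-type gene (9 of 12 in Ser5p). The first gene of the cluster, Pcdhga1 (start 37661775, end 37841870), held the most Pol II of all 58 genes. Its NTD level was 53.2 and 44.6 CPM at 0 h, 48.4 and 42.3 at 2 h, 41.8, 42.4 and 47.7 at 4 h, 38.6, 35.0 and 49.3 at 6 h, 37.8 and 50.4 at 24 h, 47.2, 43.6 and 42.2 at 48 h, then 36.2 and 39.9 at 72 h. It exceeded the next gene, Pcdhga7 (mean 31.2 CPM), in 17 of 17 NTD libraries, by 12.4 CPM or 2.38 times the larger SD over libraries. In Ser5p it exceeded Pcdhga7 (34.1 CPM) in 16 of 18 libraries. Of the 57 pairs of neighbours in the ranking of the genes, this was the 1 pair whose gap was larger than the spread between libraries, in each table. The next ranks of NTD were Pcdhgc3 (29.1 CPM), Pcdhga8 (28.2), Pcdhga10 (23.6) and Pcdhga11 (22.8), and their order was not resolved.

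Pcdhga7, the second gene in both rankings, had similar levels throughout. Its NTD level was 37.7 and 28.3 CPM at 0 h, 29.3 and 29.8 at 2 h, 28.4, 33.8 and 30.5 at 4 h, 31.7, 29.9 and 36.7 at 6 h, 37.4 and 35.1 at 24 h, 29.9, 30.8 and 26.7 at 48 h, then 26.8 and 26.9 at 72 h. Both libraries at 72 h lay just below the untreated ones, those at every other time overlapped them, and Pcdhga7 passed no test.

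The means of the 5 C-type genes spanned much of the family's range, which ran from 4.96 (Pcdhb9) to 43.6 CPM of NTD (Pcdhga1). Pcdhgc3 had a mean of 29.1 CPM of NTD (SD 4.89 over 17 libraries), Pcdhgc4 17.5 (SD 2.92), Pcdhgc5 14.04 (SD 2.71), Pcdhac1 6.42 (SD 1.67) and Pcdhac2 5.96 (SD 2.49). The gamma C-type genes therefore stood with their cluster, and the alpha C-type genes with theirs. Pcdhgc3 was 30.0 and 27.5 CPM at 0 h, 26.9 and 36.6 at 2 h, 34.8, 25.8 and 31.9 at 4 h, 26.5, 35.5 and 30.7 at 6 h, 30.2 and 29.4 at 24 h, 28.6, 17.3 and 24.95 at 48 h, then 23.4 and 34.1 at 72 h. The lowest of its 17 values was in 48 h replicate 2, which was also the lowest for Pcdhgc4. Pcdhgc4 was 22.7 and 13.95 CPM at 0 h, 17.3 and 18.3 at 2 h, 12.9, 19.5 and 17.1 at 4 h, 15.0, 18.3 and 19.3 at 6 h, 15.3 and 17.7 at 24 h, 17.9, 11.6 and 18.9 at 48 h, then 20.8 and 20.5 at 72 h. Pcdhgc5 was 17.6 and 15.5 CPM at 0 h, 13.1 and 18.8 at 2 h, 14.9, 12.0 and 11.1 at 4 h, 10.4, 11.7 and 14.4 at 6 h, 11.7 and 10.3 at 24 h, 14.6, 12.8 and 14.6 at 48 h, then 17.4 and 17.7 at 72 h. Pcdhgc3 and Pcdhgc4 overlapped their untreated values at every time, and Pcdhgc5 lay below both of its own at 4, 6, 24 and 48 h.

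In Ser5p Pcdhgc3 was 29.2 and 25.6 CPM at 0 h, 36.3, 31.5 and 35.2 at 2 h, 35.9, 29.0 and 32.1 at 4 h, 33.6, 23.7 and 40.8 at 6 h, 32.5 and 22.7 at 24 h, 28.5, 25.2 and 26.0 at 48 h, then 28.4 and 36.9 at 72 h. Pcdhgc4 was 28.2 and 23.2 CPM at 0 h, 30.2, 23.8 and 24.3 at 2 h, 24.2, 22.5 and 24.6 at 4 h, 24.4, 19.2 and 19.5 at 6 h, 17.3 and 19.3 at 24 h, 15.8, 24.3 and 27.4 at 48 h, then 17.5 and 23.2 at 72 h. Pcdhgc5 was 20.4 and 23.2 CPM at 0 h, 20.1, 12.8 and 23.2 at 2 h, 20.0, 13.95 and 22.1 at 4 h, 17.0, 17.7 and 18.5 at 6 h, 16.3 and 16.0 at 24 h, 20.0, 13.3 and 21.3 at 48 h, then 19.6 and 23.7 at 72 h. Below both untreated libraries lay those of Pcdhgc4 at 24 h and of Pcdhgc5 at 6 h and 24 h, and above both lay those of Pcdhgc3 at 2 h. None of these 3 genes passed a test of change over time in either TSS table.

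Pcdhac1 stayed low throughout. Its NTD level was 8.26 and 5.18 CPM at 0 h, 6.57 and 7.31 at 2 h, 7.96, 7.44 and 4.16 at 4 h, 8.07, 5.07 and 6.30 at 6 h, 4.50 and 5.32 at 24 h, 7.97, 6.76 and 3.44 at 48 h, then 9.38 and 5.46 at 72 h. Its Ser5p level was 11.1 and 14.02 CPM at 0 h, 11.6, 6.38 and 9.36 at 2 h, 12.1, 9.66 and 8.52 at 4 h, 7.36, 7.07 and 10.4 at 6 h, 9.65 and 6.34 at 24 h, 13.4, 7.33 and 8.51 at 48 h, then 5.46 and 9.50 at 72 h. Its Ser5p at 6 h, 24 h and 72 h lay below both untreated libraries and overlapped them at the other times, and it passed no test in the TSS tables.

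The highest alpha genes were only slightly above the rest of their cluster. In NTD they were Pcdha1 (mean 8.40 CPM, SD 2.40) and Pcdha5 (8.13, SD 2.65), and in Ser5p, Pcdhac2 aside, Pcdha5 (13.8, SD 2.62) and Pcdha11 (12.7, SD 3.80). Pcdha1 had 12.9 and 8.77 CPM of NTD at 0 h, 7.31, 6.01 and 12.0 at 48 h, then 8.71 and 6.48 at 72 h. Pcdha5 had 14.3 and 14.02 CPM of Ser5p at 0 h, 14.6, 14.7 and 13.7 at 48 h, then 13.1 and 7.39 at 72 h. Pcdha11 had 14.8 and 20.1 CPM of Ser5p at 0 h, 7.89, 10.5 and 10.4 at 48 h, then 11.5 and 8.44 at 72 h, so that the later libraries lay below both untreated ones, although no test was passed.

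The highest beta genes of NTD were Pcdhb22 (mean 10.6 CPM, SD 2.71) and Pcdhb2 (10.6, SD 3.26), and those of Ser5p were Pcdhb22 (17.4, SD 3.01) and Pcdhb3 (16.5, SD 3.43). Pcdhb22 is the last gene of its cluster. It had 12.9 and 11.6 CPM of NTD at 0 h, 13.3, 6.76 and 8.60 at 48 h, then 10.7 and 7.50 at 72 h. Pcdhb2 had 12.9 and 7.57 CPM of NTD at 0 h, 15.3, 6.01 and 15.5 at 48 h, then 11.4 and 7.50 at 72 h. Pcdhb3 had 22.7 and 21.9 CPM of Ser5p at 0 h, 15.2, 16.9 and 16.1 at 48 h, then 16.9 and 15.8 at 72 h. The 48 h and 72 h libraries of Pcdhb3 lay below its untreated ones, and those of Pcdhb2 overlapped them.

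The levels of the alpha and beta promoters were close to those of the emptiest windows in the same libraries. Transcripts that passed the filter and lay under its lower quartile of mean CPM are here the low set, which includes some alpha and beta genes. The low set had a median of 3.38 to 6.03 CPM per library in NTD and 5.00 to 9.15 in Ser5p. The alpha median was 1.12 to 1.83 times this level in NTD (median 1.40 over 17 libraries), the beta median 1.38 to 2.06 times (1.77) and the gamma median 2.93 to 5.60 times (3.69). In Ser5p the ratios were 1.23 to 2.00 (alpha), 1.68 to 2.18 (beta) and 2.81 to 4.38 (gamma). The low set itself moved with time and library, from 8.33 and 9.15 CPM of Ser5p at 0 h to 5.00 and 6.10 at 24 h. Its part in the changes of the low alpha and beta genes was not tested. Input libraries are not analysed here.

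**Figure D2:**
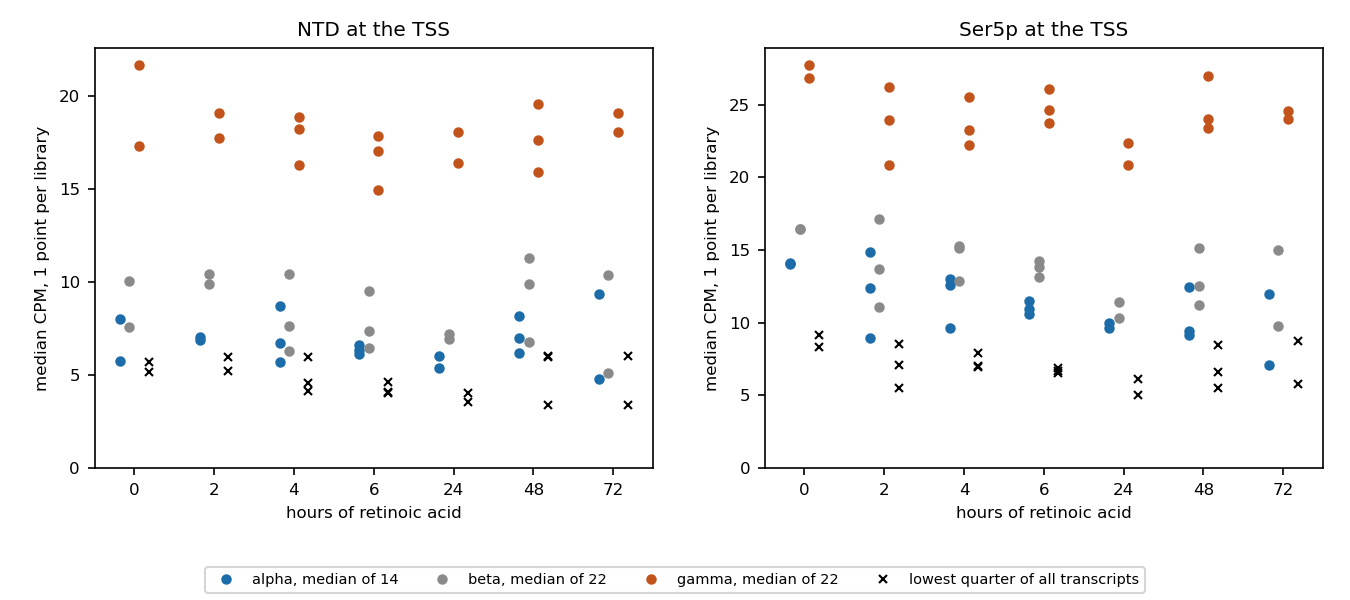
Median CPM of the alpha (14 genes), beta (22) and gamma (22) TSS windows in each library, 1 point per library, against hours of retinoic acid (evenly spaced), with the low set of all transcripts as crosses. The gamma medians of NTD lie between 15.0 and 21.7 CPM, above all alpha and beta medians, which lie nearer to the crosses.

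Few of these TSS windows held more NTD per kb than the stretch or gene body that begins at the start site. DNA upstream of the starts was not compared. By the lengths implied by the deposited FPKM, the bodies of the alpha genes, and those of the gamma genes, run to nearly the same end. In RefSeq, Pcdha6 (37188897) and Pcdhgb8 (37840489) end apart from the rest of their clusters. For the alpha and gamma genes, reads between a start site and the next were obtained by subtracting nested gene bodies. The ratio of NTD reads per kb in the TSS window to reads per kb in that stretch, or for beta genes in the gene body, had a median of 0.795 (alpha), 0.751 (beta) and 0.862 (gamma). Over 33581 transcripts the ratio of the window to the gene body had a median of 1.05, with quartiles at 0.630 and 2.05. The family's ratio was above 1 for 2 of 14 alpha genes, 0 of 22 beta genes and 7 of 22 gamma genes. The share of all transcripts above 1 is not given, and their ratio was to the gene body only. Pcdhga1 (1.70), Pcdhga7 (1.59) and Pcdhgc3 (1.40) led, and Pcdha12 (1.32) led the alpha cluster. The lowest ratio, 0.400, belonged to Pcdhgc5, whose stretch holds the constant exons of the gamma cluster. Each stretch or body begins at the start site, so it includes the downstream 1 kb of the window, which draws the ratio toward 1. These are sums of raw reads over 17 libraries and carry no test.

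Along the clusters Pol II was not evenly spread. The gamma stretches had 0.791 to 1.85 CPM per kb of NTD and the alpha stretches 0.234 to 0.527. The lowest was the 69.9 kb between the starts of Pcdha12 and Pcdhac1, at 0.234 CPM per kb (SD 0.0318, n = 17), and the highest ran from Pcdhgc5 to the end of the gamma cluster, at 1.85 CPM per kb (SD 0.275, n = 17). Ser2p had the same extremes, at 0.295 and 1.43 CPM per kb. Per kb of gene body, all 22 gamma genes lay between percentiles 78.0 and 89.3 of all transcripts in NTD and between 83.7 and 90.5 in Ser2p. The alpha genes lay between percentiles 9.41 and 22.2 in NTD and 11.1 and 26.1 in Ser2p, and the beta genes ranged from 16.8 to 61.9 and from 9.87 to 74.3. Gene bodies of the alpha cluster are nested, as are those of the gamma cluster, so genes of these clusters share most of their reads, whereas beta bodies are separate.

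**Figure D3:**
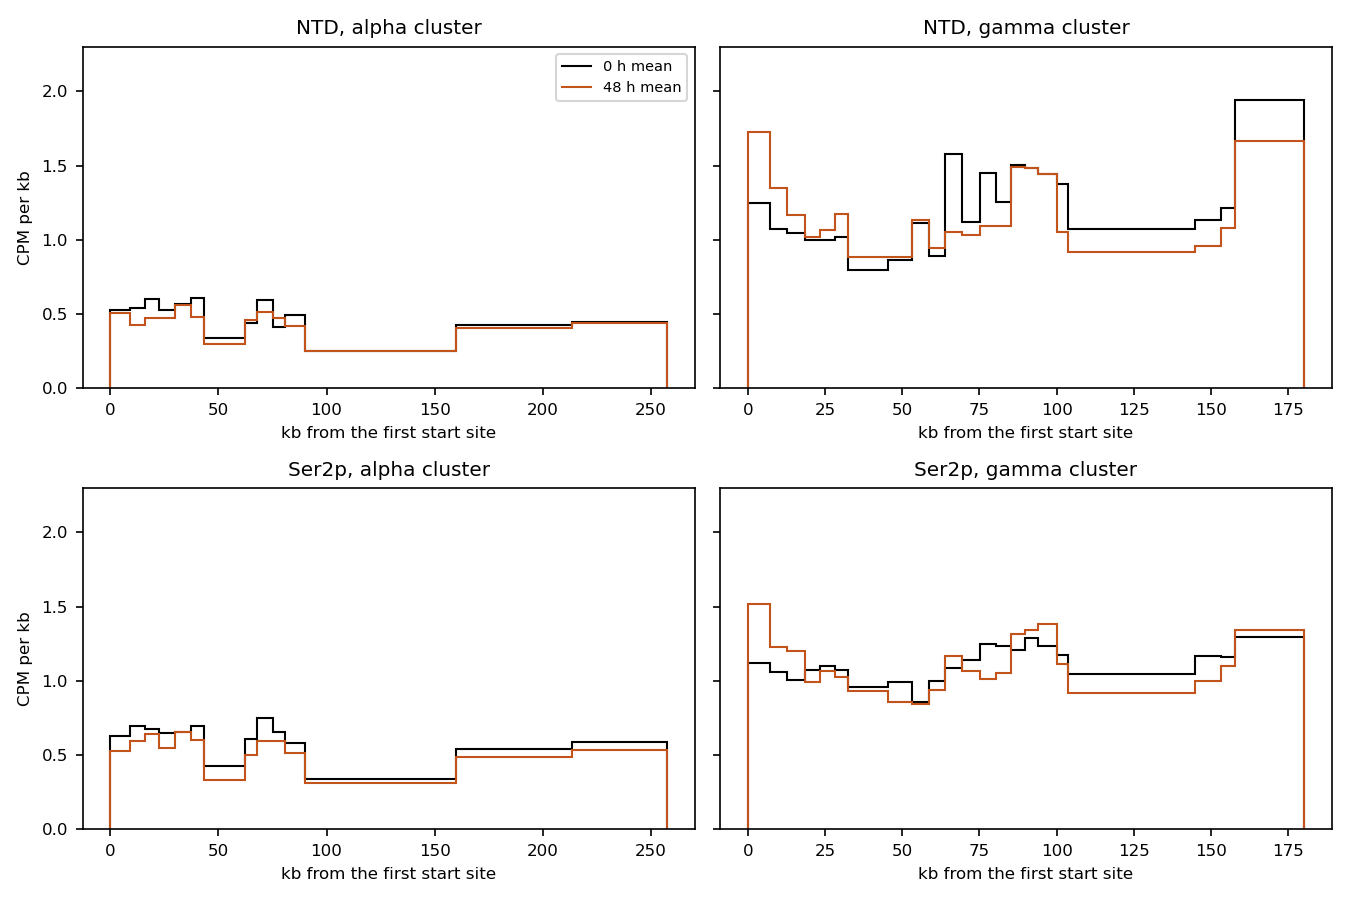
Pol II in CPM per kb between successive start sites, as means of 2 libraries at 0 h (black) and 3 at 48 h (orange), against kb from the first start of the alpha (left) and gamma (right) cluster, for NTD (top) and Ser2p (bottom). NTD in the first gamma stretch, from Pcdhga1 to Pcdhga2, had 1.25 CPM per kb at 0 h and 1.73 after 48 h, while the last stretch was the fullest of NTD at 0 h.

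The first gamma stretch, 7.152 kb from Pcdhga1 to Pcdhga2, had 1.32 and 1.18 CPM per kb of NTD at 0 h, 1.69, 2.17 and 1.33 at 48 h, then 1.32 and 1.91 at 72 h. Its Ser2p was 1.09 and 1.15 CPM per kb at 0 h, 1.44, 1.85 and 1.27 at 48 h, then 1.11 and 1.41 at 72 h. All 3 libraries at 48 h were above both at 0 h with each antibody, and the libraries at 72 h overlapped them in Ser2p. The stretch that starts at Pcdhga8 had 1.45 and 1.71 CPM per kb of NTD at 0 h, compared with 1.17, 1.23 and 0.754 at 48 h, and these did not overlap. Its Ser2p was 1.10 and 1.07 CPM per kb at 0 h and 1.24, 1.17 and 1.09 at 48 h. Each stretch begins at a start site, so it shares reads with the downstream part of that gene's TSS window. Stretches were obtained by subtraction and were not tested.

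Ser5p and NTD ranked the promoters alike, with a Spearman rho of 0.951 between mean levels over 58 genes, 0.503 over the alpha genes, 0.936 over the beta genes and 0.957 over the gamma genes. The 2 antibodies were scaled in separate tables, so their ratio is read only against that of other transcripts. The Ser5p to NTD ratio had a median of 1.20 over 33671 transcripts and 1.49 over the 9125 transcripts whose NTD level was in the range of the alpha and beta genes. It was 1.67 for the alpha genes (1.39 to 2.87), 1.57 for the beta genes (1.44 to 1.88) and 1.35 for the gamma genes (1.03 to 1.71). Pcdhac2 had the highest ratio of the family, 2.87, at percentile 99.3 of all transcripts. The next was Pcdhb13 at 1.88, percentile 95.7. The fullest promoters had the lowest ratios of the family, 1.03 for Pcdhga1, 1.06 for Pcdhgc3 and 1.09 for Pcdhga7. Among all transcripts these were at percentiles 36.3, 39.4 and 42.6. NTD is the divisor of the ratio, and all these percentiles are against transcripts of any NTD level.

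Few of the promoters were called between 0 h and the later times, and most calls were of lower values. More calls were made in Ser5p than in NTD. Over all transcripts this held at 24 h (6.73% against 1.52% called) and 48 h (12.2% against 9.58%), but not at 72 h (8.95% against 9.13%). The counts are therefore not read as a trait of the family. Low counts in alpha and beta windows limit what can be detected there. In NTD, tested with edgeR's quasi-likelihood test and Benjamini-Hochberg adjustment over all transcripts, 0 of 58 genes were called at 2, 4 and 6 h, where 0.320%, 0.709% and 0.728% of all transcripts were called. At an unadjusted p under 0.05 there were 2, 2 and 5 genes, and DESeq2 also called 0. At 24 h 1 gene was lower (0.581% of all transcripts were lower and 1.52% were called), at 48 h 1 was lower (4.92% lower, 9.58% called) and at 72 h 1 was lower (3.47% lower, 9.13% called). Between 6 h and 48 h 1 gene was lower (6.52% lower, 10.1% called). Over all times together 1 gene passed the F test, beside 14.9% of all transcripts. The family's share, 1 of 58, was below the background from 48 h on.

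In Ser5p 0 of 58 genes were called at 2, 4 and 6 h, beside 0.0305%, 0.0153% and 0.0549% of all transcripts, with 10, 4 and 9 genes at an unadjusted p under 0.05 and 0 by DESeq2. At 24 h 3 were lower (3.14% of all transcripts lower, 6.73% called), at 48 h 5 were lower and 1 was higher (5.37% lower, 6.84% higher, 12.2% called) and at 72 h 3 were lower (3.87% lower, 8.95% called). Between 6 h and 48 h 1 gene was lower (3.21% lower, 7.02% called). Over all times 4 genes passed the F test, beside 14.5% of all transcripts. The genes lower at 24 h were Pcdhb13, Pcdhb20 and Pcdhgb8. Those lower at 48 h were Pcdhac2, Pcdhb7, Pcdhb19, Pcdhb20 and Pcdhga8, and those lower at 72 h Pcdhac2, Pcdhb7 and Pcdhga9. All comparisons with 0 h share the same 2 untreated libraries.

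**Figure D4:**
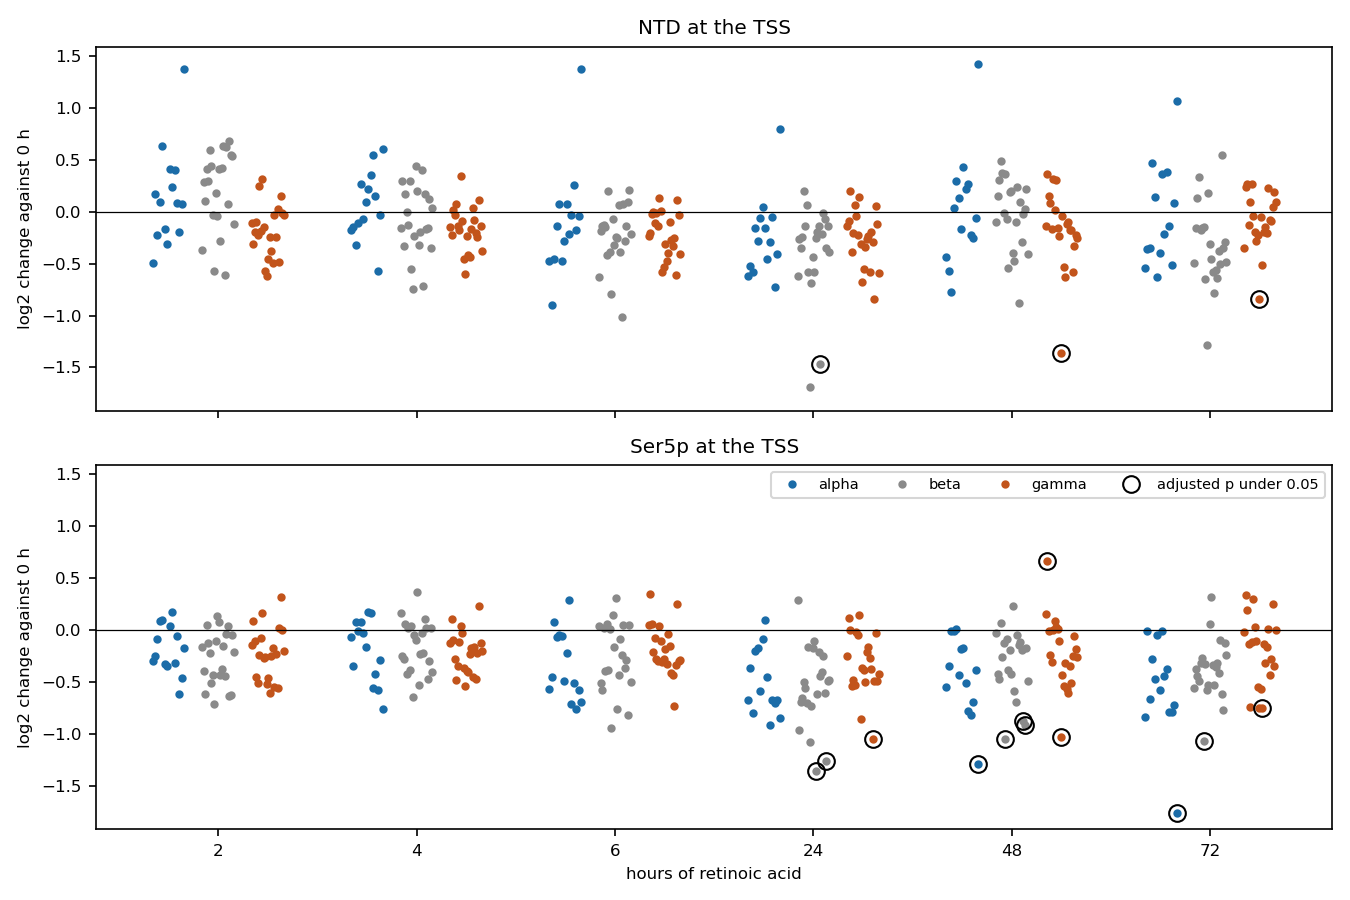
Log2 change against 0 h from edgeR of each of the 58 genes, at each time (evenly spaced), for NTD (top) and Ser5p (bottom) in the TSS window; rings mark adjusted p under 0.05. Under TMM scaling most points of Ser5p lie below 0 at 24 h (54 of 58). The 1 ringed point above 0 is Pcdhga2 at 48 h.

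Pcdhga8, a gamma A gene in the middle of its cluster (chromosome 18, start 37725706, end 37841873 in GRCm38), was the 1 gene called with both antibodies at 48 h. Its NTD level was 40.3 and 48.2 CPM at 0 h, 26.3 and 31.3 at 2 h, 34.3, 18.9 and 33.8 at 4 h, 21.9, 29.9 and 38.5 at 6 h, 27.5 and 28.0 at 24 h, 17.9, 18.4 and 14.6 at 48 h, then 24.8 and 24.9 at 72 h. The untreated libraries were the 2 highest of 17 and those at 48 h the 3 lowest. NTD at Pcdhga8 fell by 1.36 on the log2 scale at 48 h (SE 0.24, edgeR adjusted p = 6.4e-05), by 0.84 at 72 h (SE 0.25, adjusted p = 0.0230) and by 0.83 from 6 h to 48 h (SE 0.23, adjusted p = 0.0132), with an F test over all times at adjusted p = 0.00244. The 48 h call was kept in all 22 alternatives run, at -1.45 to -1.12. The 72 h call did not hold without 0 h replicate 4 (-0.69, adjusted p = 0.208), 72 h replicate 1 (-0.81, 0.0666) or 72 h replicate 3 (-0.82, 0.149), and the 6 h to 48 h call without 6 h replicate 4 (-0.59, 0.185) or 48 h replicate 3 (-0.76, 0.0593). With the authors' scale factors the 72 h change (adjusted p = 0.395), the change from 6 h to 48 h (0.158) and the F test over all times (0.224) were no longer called.

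Ser5p at Pcdhga8 was 47.2 and 42.1 CPM at 0 h, 34.3, 21.7 and 37.8 at 2 h, 27.0, 25.2 and 40.1 at 4 h, 34.5, 29.8 and 46.5 at 6 h, 34.0 and 35.4 at 24 h, 18.2, 19.2 and 27.9 at 48 h, then 22.4 and 30.6 at 72 h. The 48 h and 72 h libraries lay below both untreated ones, while those at 6 h overlapped them. Ser5p fell by 1.03 at 48 h (SE 0.24, edgeR adjusted p = 0.00286) and by 0.75 from 6 h to 48 h (SE 0.22, adjusted p = 0.0265), and the F test gave adjusted p = 0.0271. The 48 h call did not hold without 0 h replicate 1 (-0.92, adjusted p = 0.0504) and with the authors' scale factors (-0.73, adjusted p = 0.0814). The 6 h to 48 h call did not hold without 6 h replicate 1 (-0.79, adjusted p = 0.0617), 6 h replicate 4 (-0.55, 0.224), 48 h replicate 1 (-0.65, 0.0985) or 48 h replicate 2 (-0.65, 0.141). The F test failed without 0 h replicate 1 (adjusted p = 0.0917), 48 h replicate 1 (0.0951) or 48 h replicate 2 (0.118). The authors' scale factors gave adjusted p = 0.160 from 6 h to 48 h and 0.175 for the F test.

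Pcdhac2, the last gene of the alpha cluster (start 37143678, end 37187663), lost Ser5p, and its NTD passed no test. Its Ser5p level was 22.7 and 32.9 CPM at 0 h, 34.3, 15.3 and 24.3 at 2 h, 23.8, 9.66 and 14.5 at 4 h, 14.7, 11.1 and 24.7 at 6 h, 16.3 and 14.3 at 24 h, 6.68, 11.4 and 14.6 at 48 h, then 12.5 and 3.69 at 72 h. The libraries from 48 h on lay below both untreated ones, and 72 h replicate 3, with 7 reads in the window, was the lowest. Ser5p fell by 1.29 at 48 h (SE 0.35, edgeR adjusted p = 0.0104) and by 1.76 at 72 h (SE 0.42, adjusted p = 0.00436), with an F test at adjusted p = 0.00568. The 48 h call did not hold when 0 h replicate 4 (-1.01, adjusted p = 0.180) or 48 h replicate 1 (-1.07, 0.0514) was left out. The 72 h call did not hold when 0 h replicate 4 (-1.48, adjusted p = 0.0753) or 72 h replicate 3 (-1.12, 0.245) was left out. Leaving out both 0 h replicate 4 and 72 h replicate 3 gave adjusted p = 0.0722 for the F test, and DESeq2 gave 0.117 for it and 0.0786 at 48 h.

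NTD at Pcdhac2 was 5.16 and 0.797 CPM at 0 h, 8.36 and 6.27 at 2 h, 5.47, 4.01 and 3.24 at 4 h, 8.65, 7.61 and 5.93 at 6 h, 6.75 and 3.19 at 24 h, 11.3, 5.26 and 6.88 at 48 h, then 8.04 and 4.43 at 72 h. These levels rest on 2 to 17 reads per library, 10 and 2 of them at 0 h. In a joint edgeR fit of both antibodies, the change of Ser5p at 48 h differed from that of NTD by -2.78 on the log2 scale (SE 0.69, adjusted p = 0.0436), the 1 such gene of 58 beside 0.399% of all transcripts. Without 0 h replicate 4 the difference was -1.58 and the call was lost (adjusted p = 1.00), and without 0 h replicate 1 it was -4.65 (adjusted p = 0.00332). At 72 h it was -2.87 (adjusted p = 0.109), with 0.0884% of transcripts called and 0 of 58 genes. No gene of the family was called by edgeR in this comparison at 2, 4, 6 or 24 h, when 0.00% of all transcripts were. Unadjusted p was under 0.05 for 4, 1, 1 and 3 of the 58, and DESeq2 was not run here.

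Pcdhb7, a beta gene with its own single exon (start 37341702, end 37345207), lost Ser5p over the same hours. Its Ser5p level was 18.1 and 21.9 CPM at 0 h, 14.6, 15.7 and 11.6 at 2 h, 15.8, 13.4 and 16.0 at 4 h, 16.1, 14.1 and 15.2 at 6 h, 10.2 and 13.7 at 24 h, 8.50, 10.99 and 8.98 at 48 h, then 10.9 and 7.92 at 72 h. Both untreated libraries were above all 16 treated ones. Ser5p fell by 1.05 at 48 h (SE 0.27, edgeR adjusted p = 0.00720) and by 1.07 at 72 h (SE 0.31, adjusted p = 0.0188), with an F test at adjusted p = 0.0345. Without 0 h replicate 4 the values were -0.91 (adjusted p = 0.142) and -0.94 (0.192), and the 72 h call also failed without 72 h replicate 3 (-0.85, adjusted p = 0.277). With the authors' scale factors they were -0.75 (adjusted p = 0.0714) and -0.87 (0.0876), and the F test had adjusted p = 0.198. The F test was kept in 12 of 23 alternatives and lost, among others, without 0 h replicate 1 (adjusted p = 0.0643), 0 h replicate 4 (0.163), 4 h replicate 4 (0.0505), 6 h replicate 1 (0.0580), 48 h replicate 1 (0.0657), 48 h replicate 3 (0.0916) or 72 h replicate 3 (0.0870).

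NTD at Pcdhb7 was 7.23 and 6.78 CPM at 0 h, 11.9 and 7.31 at 2 h, 12.4, 5.72 and 7.40 at 4 h, 8.65, 9.13 and 6.67 at 6 h, 6.75 and 7.80 at 24 h, 9.30, 6.76 and 12.9 at 48 h, then 10.0 and 4.09 at 72 h, overlapping the untreated libraries at every time but 2 h, with no call. The difference between the changes of the 2 antibodies at 48 h was -1.47 (edgeR adjusted p = 0.153).

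**Figure D5:**
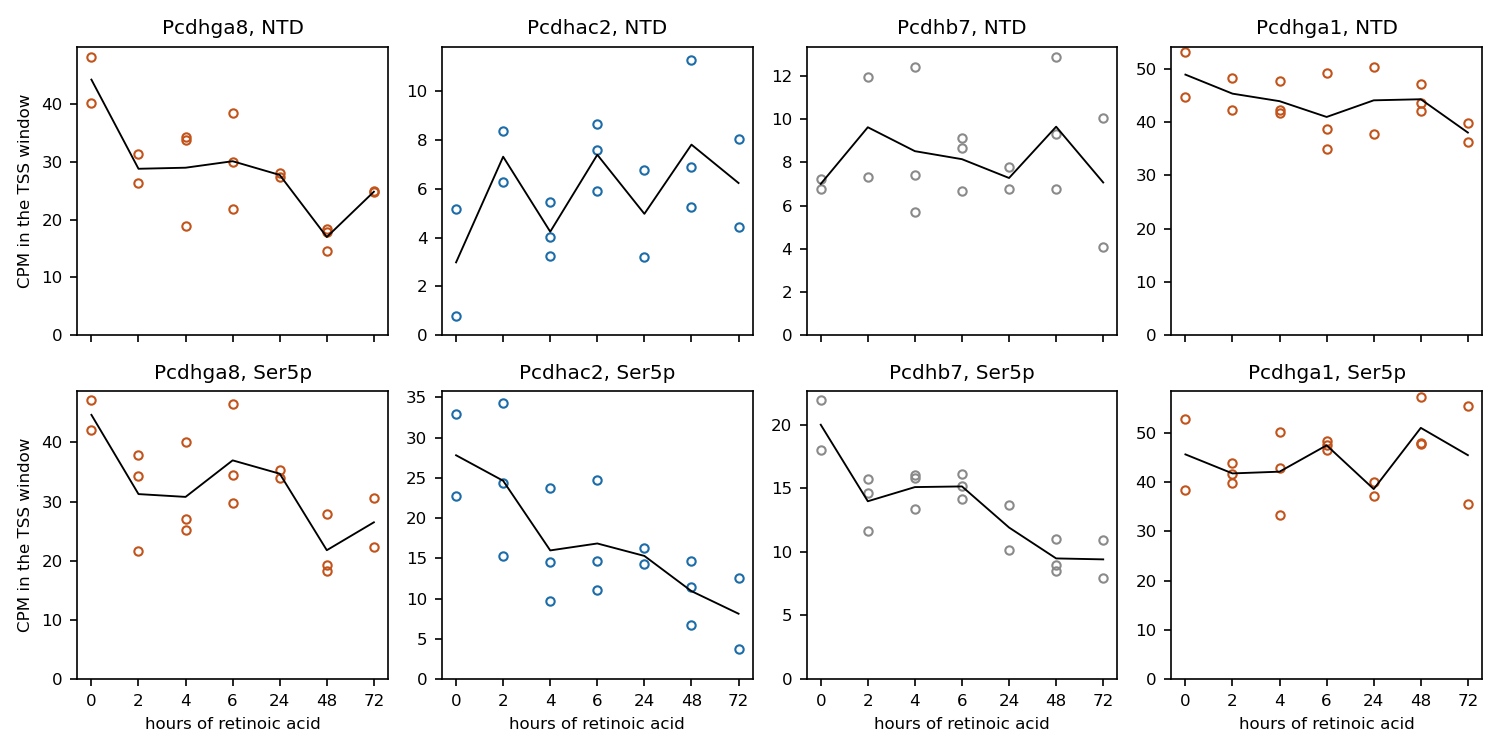
CPM in the TSS window of Pcdhga8, Pcdhac2, Pcdhb7 and Pcdhga1 in each library (open circles) with the mean at each time (line), against hours of retinoic acid (evenly spaced), for NTD (top) and Ser5p (bottom). Pcdhga8 is lowest at 48 h with NTD (14.6 to 18.4 CPM), whereas Pcdhac2 and Pcdhb7 passed the test in Ser5p and not in NTD, and Pcdhga1 in neither.

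The other calls were less firm. Pcdhb20 had 22.7 and 24.4 CPM of Ser5p at 0 h, 23.2, 9.36 and 13.9 at 2 h, 20.0, 17.2 and 20.1 at 4 h, 11.5, 13.1 and 15.2 at 6 h, 10.7 and 9.01 at 24 h, 12.1, 8.24 and 17.0 at 48 h, then 17.5 and 10.0 at 72 h. It fell by 1.27 at 24 h (edgeR adjusted p = 0.0253) and by 0.91 at 48 h (adjusted p = 0.0355), and its F test (adjusted p = 0.0411) was kept in 9 of 23 alternatives and not kept when any of 10 libraries was left out (adjusted p of 0.0530 to 0.147). These were both libraries at 0 h, both at 24 h, replicate 4 at 2 h, replicates 1 and 4 at 4 h, replicate 1 at 6 h, and replicates 1 and 2 at 48 h. Without 0 h replicate 4 its changes were -1.21 (adjusted p = 0.165) and -0.86 (0.195), and without 24 h replicate 3 the 24 h change was -1.13 (0.258). The 48 h call of Pcdhb20 also failed without 0 h replicate 1 (-0.95, adjusted p = 0.111), 48 h replicate 1 (-0.90, 0.0600) or 48 h replicate 2 (-0.66, 0.232). All 8 libraries from 6 h to 48 h were below both untreated ones, but single libraries moved the calls. With the authors' scale factors its changes were -0.80 (adjusted p = 0.0575) and -0.62 (0.130).

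Pcdhb13 fell by 1.36 at 24 h in Ser5p (edgeR adjusted p = 0.0222), from 23.6 and 18.9 CPM to 9.65 and 7.34. The call did not hold without 0 h replicate 1 (-1.16, adjusted p = 0.105), 0 h replicate 4 (-1.49, 0.0941) or 24 h replicate 3 (-1.14, 0.267). Pcdhgb8, a transcribed pseudogene in RefSeq, fell by 1.05 (adjusted p = 0.0197), from 31.0 and 38.4 CPM to 15.7 and 17.3. The call did not hold without 0 h replicate 4 (-0.89, adjusted p = 0.181), 24 h replicate 2 (-0.98, 0.0540) or 24 h replicate 3 (-1.12, 0.185). It failed too under the authors' scale factors (-0.58, 0.162). Of the 3 Ser5p calls at 24 h, 0 were made without both 0 h replicate 4 and 72 h replicate 3 and 0 by DESeq2, which gave them no adjusted p.

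At 48 h Pcdhb19 fell by 0.88 in Ser5p (edgeR adjusted p = 0.0368), from 16.7 and 20.7 CPM to 8.50, 8.24 and 13.2. It failed without either 0 h library (-1.02 and adjusted p = 0.0752 for replicate 1, -0.72 and 0.306 for replicate 4), without 48 h replicate 1 (-0.79, 0.0760) or without 48 h replicate 2 (-0.73, 0.167), and with the authors' scale factors (-0.58, 0.178). Pcdhga2, the second gene of the gamma cluster, was the 1 gene that rose, by 0.66 (SE 0.22, adjusted p = 0.0426), from 22.7 and 23.2 CPM to 32.8, 45.8 and 29.8. The rise failed without 0 h replicate 1 (0.66, adjusted p = 0.188), 0 h replicate 4 (0.68, 0.190) or 48 h replicate 2 (0.45, 0.285). NTD at Pcdhga2 was 24.3 and 21.5 CPM at 0 h and 29.9, 31.9 and 24.95 at 48 h, which did not pass the test. Pcdhga9 fell by 0.76 in Ser5p at 72 h (adjusted p = 0.0410), from 30.6 and 40.8 CPM to 17.5 and 24.3. Its call did not hold without 0 h replicate 4 (-0.54, adjusted p = 0.390), 6 h replicate 1 (-0.75, 0.0523), 72 h replicate 1 (-0.53, 0.229) or 72 h replicate 3 (-1.01, 0.0776), and with the authors' scale factors (-0.53, 0.344).

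In NTD Pcdhb16 fell by 1.47 at 24 h (SE 0.39, edgeR adjusted p = 0.0373). Its levels were 21.7 and 9.17 CPM at 0 h, 10.2 and 9.40 at 2 h, 10.9, 5.15 and 10.6 at 4 h, 11.0, 5.07 and 6.67 at 6 h, 5.40 and 5.32 at 24 h, 10.6, 5.26 and 10.3 at 48 h, then 10.7 and 8.87 at 72 h. A single library, 0 h replicate 1, was high. Without it the change was -0.73 (adjusted p = 0.664), and the call also failed without 24 h replicate 2 (-1.49, 0.129) or 24 h replicate 3 (-1.46, 0.370). It failed too under the authors' scale factors (-1.06, 0.0972).

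Called or not, most of the genes had a Ser5p change below 0 under TMM scaling. At 24 h 54 of 58 genes had a log2 change below 0 in Ser5p, with a median of -0.48, beside 53.8% of all transcripts below 0 and a median of -0.07. The cluster medians were -0.63 (alpha), -0.53 (beta) and -0.37 (gamma). The 24 h libraries share no replicate number with those at 0 h. At 48 h they were -0.41, -0.23 and -0.25, and at 72 h -0.52, -0.36 and -0.14, when all 14 alpha genes were below 0 beside 53.3% of all transcripts. In NTD 50 of 58 genes were below 0 at 24 h (median -0.26, against -0.03 for all transcripts), and 34 of 58 at 48 h (median -0.08). From 6 h to 48 h the NTD medians were 0.15 (alpha), 0.21 (beta) and 0.09 (gamma), with 18 of 58 genes below 0.

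The size of these medians, and for some of them the sign, depended on scaling and on the untreated libraries. The authors' scale factors shifted all transcripts by 0.46 (Ser5p) and 0.40 (NTD) at 24 h relative to TMM, and under them the family's medians were -0.02 in Ser5p and 0.15 in NTD. At 48 h the shifts were 0.29 and 0.19, and the medians 0.02 and 0.16. Without 0 h replicate 1 the NTD median at 48 h was 0.09. Beside these medians, the low set had 5.18 and 5.68 CPM of NTD at 0 h, against 3.55 and 4.05 after 24 h, and in Ser5p the alpha median was 1.53 to 1.69 times the low set at 0 h, 1.58 to 2.00 times at 24 h and 1.23 to 1.38 times at 72 h. The part of these low levels in the medians was not tested.

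Over gene bodies few genes of the family were called. In NTD no gene was called at any time against 0 h (0.00%, 0.0188%, 0.0691%, 0.270%, 3.75% and 4.52% of all transcripts were called from 2 h to 72 h) or between 6 h and 48 h (9.76%). Unadjusted p was under 0.05 for 0, 0, 1, 2, 2 and 2 genes against 0 h and for 1 between 6 h and 48 h, and DESeq2 called 0. The F test called 1 of 58 genes, Pcdhb7 (adjusted p = 0.0123), beside 7.81% of all transcripts. Its body had 1.97 and 1.66 CPM at 0 h, 1.79 and 2.23 at 2 h, 2.29, 1.64 and 1.90 at 4 h, 2.56, 2.99 and 2.82 at 6 h, 3.57 and 2.98 at 24 h, 1.81, 2.20 and 1.97 at 48 h, then 1.56 and 1.40 at 72 h. Ser2p over the same body was 1.82 and 1.98 CPM at 0 h and highest at 4 h, at 2.34, 2.50 and 2.41 CPM. It was 1.90, 2.16 and 1.89 CPM at 6 h, then 2.29 and 1.92 at 24 h. NTD in the body of this gene was highest at 6 h and 24 h, when all 5 libraries exceeded the other 12. The call did not hold without 24 h replicate 2 (adjusted p = 0.0527).

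In Ser2p 0 genes were called at 2, 4 and 6 h, when 0.00% of all transcripts were, and 0 at 48 h (1.76%), at 72 h (1.62%), between 6 h and 48 h (5.43%) or in the F test (7.53%), by edgeR. At an unadjusted p under 0.05 there were 3, 6, 14, 0, 12 and 1 genes in these comparisons, and DESeq2 called 0. At 24 h 5 of 58 genes were lower beside 3.99% of all transcripts lower and 13.0% called. They were Pcdha5, Pcdha6, Pcdha7, Pcdha8 and Pcdhac1, with log2 changes of -0.40 to -0.35, and their nested bodies share reads. Pcdha5 had 105 and 121 CPM at 0 h, against 89.2 and 88.1 after 24 h. All 5 adjusted p-values lay between 0.0468 and 0.0495, and DESeq2 called 10 genes. With no filter on low counts 2 genes were called. The authors' scale factors left 0 (adjusted p of 0.0535 to 0.0563 for the 5), as did leaving out 0 h replicate 4 together with 72 h replicate 3. Without single libraries the count called at 24 h ranged from 0 to 16. It was 0 without either 0 h library, either 24 h library, any 6 h library, 2 h replicate 4, 4 h replicate 3, 4 h replicate 4 or 48 h replicate 3. It was 3 when 48 h replicate 1 was left out, 9 for 2 h replicate 3, 12 for 48 h replicate 2, 13 for 2 h replicate 1 and 16 for either library at 72 h. All 14 alpha genes had log2 changes below 0 at each time against 0 h in Ser2p, with medians of -0.15, -0.23, -0.25, -0.36, -0.16 and -0.27 from 2 h to 72 h. At 72 h the counts over bodies depended on which of the 2 libraries was left out, and a lone library has no spread of its own. The share of all transcripts called under these alternatives is not given here, so their counts are not set against the background. In the joint edgeR fit of Ser2p and NTD over bodies, 0 of 58 genes were called at any time, as were 0.00% of all transcripts, and at most 1 gene a time had an unadjusted p under 0.05.

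Related genes gave the following counts. Of 12 protocadherins outside the clusters, which are single genes elsewhere in the genome, 0 were called in NTD at 48 h and 1 rose at 72 h, beside 9.58% and 9.13% of all transcripts called. This was Pcdh17, from a mean of 20.7 CPM at 0 h to 43.0 at 72 h (log2 change 1.08, SE 0.25, edgeR adjusted p = 0.00245). In Ser5p 3 of 12 fell at 48 h, beside 5.37% of all transcripts, among them Pcdh7 (-1.72, SE 0.34, adjusted p = 6.24e-04) and Pcdh1 (-1.25, SE 0.27, adjusted p = 0.00155). Of 16 genes in and beside the locus, 0 were called in NTD at 48 h or 72 h, and 2 rose in Ser5p at 48 h, beside 6.84% of all transcripts. They were Taf7, an intronless gene of a general transcription factor subunit between the beta and gamma genes (0.76, SE 0.21, adjusted p = 0.0128), and Tmco6 (0.95, SE 0.22, adjusted p = 0.00275).

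Of 25 known regulators of clustered protocadherin promoters, 0 rose and 3 fell in NTD at 48 h, beside 4.92% of all transcripts lower and 9.58% called. In Ser5p 5 rose and 1 fell, beside 6.84% higher and 5.37% lower. Tet1, which oxidises methylated cytosine, fell by 1.79 in NTD (SE 0.25, edgeR adjusted p = 1.16e-06) and by 2.03 in Ser5p (SE 0.21, adjusted p = 1.82e-08). Dnmt3a, a de novo DNA methyltransferase, fell by 0.85 in NTD (SE 0.25, adjusted p = 0.0199). Stag2, a cohesin subunit, rose by 1.29 in Ser5p (SE 0.27, adjusted p = 9.98e-04). Smc3, another cohesin subunit, had an NTD change of 0.58 at 48 h (adjusted p = 0.0508) and rose by 0.83 at 72 h (SE 0.21, adjusted p = 0.00670). Ctcf had a change of 0.21 in NTD at 48 h (SE 0.20, adjusted p = 0.621), which did not pass the test.

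In the authors' deposited table no clustered protocadherin gene had an adjusted p under 0.05 at any time against 0 h in any of the 4 tables, where between 0 and 58 of the genes had an adjusted p. For Pcdhga8 at 48 h the authors' deposited table gives log2 fold changes of -0.61 in NTD (adjusted p = 0.122) and -0.40 in Ser5p (adjusted p = 0.246).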

How the data were processed

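The genes, lists and tests were chosen with earlier results of these data known. The builds mm10 and dm6 and the tools Bowtie2, SAMtools, MACS2 and DESeq2 are named in the submitters' processing notes. Unique mapping and removal of duplicates are given in the labels' track names. The counting tool is not given in the sources used here. The authors deposited raw read counts per RefSeq transcript, a normalized signal (the count times 1 factor per library), FPKM for gene bodies, and log2 fold changes with adjusted p-values against 0 h. Similar variable exons of paralogs could lose reads that map to several of them, and strand is not read.

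Read counts entered a quasi-likelihood fit (edgeR 4.0.16 with limma 3.58.1, in R 4.3.3) after filterByExpr and TMM scaling, with time as a factor over all libraries of a table and Benjamini-Hochberg adjustment over the 31868, 32774, 31843 and 32123 transcripts that passed the filter (NTD and Ser5p windows, NTD and Ser2p bodies), at 0.05. The common coefficient of biological variation was 0.138, 0.141, 0.118 and 0.0899. Differences between antibodies were tested as an interaction of antibody and time. Reads between start sites came from differences of nested gene bodies. Lengths implied by the FPKM were within 300 bases of the RefSeq GRCm38 gene for 55 of 58 genes, which gave positions, 1-based. The closest starts were 3779 bases apart, so no TSS windows overlapped. Python 3.11.15, pandas 2.3.3 and matplotlib 3.10.9 were used for the rest, and the fit was tested on simulated data.

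Genes were named if of the C type, among the 2 highest of each cluster in each TSS table, or among up to 6 with the smallest adjusted p in the F test. For the highest alpha and beta genes the libraries at 0, 48 and 72 h of 1 antibody are given. Genes outside the family are at most 4 per list by the same test, and Pcdhga1 stretches, Pcdhga2, Pcdhga9, Ctcf and other called genes were chosen after their values were seen. Alternatives were the authors' scale factors, no filter, DESeq2 1.42.0, a replicate block, each library left out, and 0 h replicate 4 with 72 h replicate 3 left out. Leaving out each 0 h library in the comparison of antibodies was added after seeing the data. The samples of input and histone marks are not analysed here.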

Additional observations from a re-analysis of the deposited data

Results flagged for a closer look

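The change of Ser5p at the Pcdhac2 promoter at 48 h differed from that of total Pol II by -2.78 on the log2 scale in the joint edgeR fit (adjusted p = 0.0436). The adjusted p passed with both untreated libraries and not without 0 h replicate 4, whose NTD window held 2 reads.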

How the results depend on the processing

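Counts of clustered protocadherin genes called moved as follows, and no named change reversed its direction. With the authors' scale factors, NTD windows had 2 genes at 48 h, 0 at 72 h and 0 from 6 h to 48 h, and Ser5p windows 1 over all times, 2 at 48 h, 1 at 72 h and 0 from 6 h to 48 h. Without both 0 h replicate 4 and 72 h replicate 3, NTD had 2 over all times, 2 at 48 h, 0 at 72 h and 2 from 6 h to 48 h, Ser5p 1, 1 and 0 over all times, at 48 h and at 72 h, and the comparison of antibodies at 48 h had 0. DESeq2 gave 0 in NTD at 72 h and 0 (all times), 2 (48 h), 1 (72 h) and 0 (6 h to 48 h) in Ser5p, and no adjusted p for Pcdhb16 or for the 3 Ser5p genes of 24 h. With the replicate block, NTD had 0 at 72 h and 0 from 6 h to 48 h, and Ser5p 2 over all times, 2 at 48 h and 0 from 6 h to 48 h. At 24 h the block gave 0 genes in NTD windows, 0 in Ser5p windows and 0 in Ser2p bodies (1, 3 and 5 without it). Samples with the same replicate number correlated at -0.19 to 0.35 (NTD windows), -0.23 to 0.43 (Ser5p windows), -0.44 to 0.62 (NTD bodies) and -0.47 to 0.61 (Ser2p bodies), over 0.1 in 18 of 32, 18 of 37, 26 of 32 and 17 of 37 pairs. Of the libraries, 8 of 17, 13 of 18, 8 of 17 and 11 of 18 correlated best with their own number. The labels state no pairing and not every pair was over 0.1, so the main fit did not pair samples by number. Whether samples with the same number belong together is not known from these values. The calls lost with the replicate block depend on this choice.

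Without single libraries the counts ranged from 1 to 2 (all times), 1 to 2 (48 h), 0 to 2 (72 h) and 0 to 2 (6 h to 48 h) in NTD windows, and 1 to 6, 1 to 6, 0 to 4 and 0 to 1 in Ser5p windows. In bodies they were 0 to 2, 0, 0 to 13 and 0 in NTD and 0 to 2, 0, 0 to 14 and 0 in Ser2p, and the comparisons of antibodies at 48 h gave 0 to 1 (Ser5p) and 0 (Ser2p). The lone library left at a time is assumed to vary like the others. Shares of all transcripts called are not given for any of the alternatives, so their counts do not set the family against the background. The low counts in alpha and beta windows, a mean of 5 to 11 CPM of NTD, limit what can be detected there.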
